A study of Mus musculus with 3 samples.

Results

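The hyaluronan matrix genes of cumulus expansion are 10 genes listed by name, Has2, Ptx3, Tnfaip6, Vcan, Cd44, Hapln1, Itih1, Itih2, Itih3 and Ambp, and each was found by its RefSeq accession among the 24225 genes of the table. Granulosa cells, the somatic cells of the ovarian follicle, had been taken from wild-type C57BL/6 females of postnatal day 21 to 28. Every mouse had received 4 IU of eCG, which drives follicle growth, and was sampled before hCG (0 h) or 4 h or 12 h after 5 IU of hCG, the ovulatory stimulus. RNA came from 3 mice per time, with 1 library per time, so no test was possible and each difference stands between single libraries. The cells were released by puncturing follicles, and the labels do not say whether cumulus cells, the granulosa cells around the oocyte, were kept apart from the cells of the follicle wall.

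Before ovulation the cumulus cells spread apart in a gel of hyaluronan, a long sugar polymer that hyaluronan synthase 2 (Has2) extrudes from the cell surface. TSG-6, the product of Tnfaip6, moves the heavy chains of the serum protein inter-alpha-trypsin inhibitor onto hyaluronan. Those chains are encoded by Itih1, Itih2 and Itih3, and bikunin, which carries them, is cut from the product of Ambp. The pentraxin Ptx3 binds the heavy chains and ties hyaluronan strands together, the proteoglycan versican (Vcan) and the link protein Hapln1 bind the strands themselves, and Cd44 is a cell-surface hyaluronan receptor.

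Has2, Ptx3, Tnfaip6 and Vcan all stood high in the 4 h library and low on either side of it, whereas Itih2 was high at 4 h and at 12 h, Cd44 was lowest at 12 h, and Hapln1, Itih1, Itih3 and Ambp stayed below 1 FPKM in each library. FPKM counts sequenced fragments for each kilobase of a transcript and corrects for library size, so it compares genes per length. A gene was called higher or lower when log2 of (FPKM + 1) differed by at least 1, which is a fold of 2, and 1 of the 2 libraries had at least 1 FPKM. By that rule the 4 h library exceeded the 0 h library for 5 of the 10 genes and fell below it for none, where the share of all 13240 genes assessed was 10.2% higher and 7.03% lower. Between 4 h and 12 h, 5 of the 10 were lower at 12 h and none was higher, against 7.88% lower and 4.83% higher among 13242 genes. At 12 h against 0 h, 2 of the 10 were higher and none lower, against 3.16% higher and 2.55% lower among 13026 genes. Those shares are of genes assessed, and of the 10 only 6, 6 and 5 were assessed in these 3 comparisons. The median log2 fold of all 10 was 0.95 at 4 h against 0 h, where all genes assessed had -0.01, and -0.91 at 12 h against 4 h, where they had 0.01. At 12 h against 0 h it was 0.07, where all genes had -0.02. The comparisons share libraries, so the second follows in part from the first.

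The spacing of low FPKM values puts depth at 13400000 (0 h), 11900000 (4 h) and 11600000 (12 h) fragments. Summed FPKM was 501561, 621365 and 472904, and rescaling the libraries to a common sum put the median log2 fold of all genes at -0.29 for 4 h against 0 h and at 0.37 for 12 h against 4 h. Folds are on the deposited scale unless said otherwise. On that common sum 36.7% of genes past the threshold at 4 h against 0 h were the higher ones, against 59.3% on the deposited scale, and at 12 h against 4 h 70.7%, against 38.0%. Some ubiquitous genes were near 0 in every library (Gapdh at 0.909, 1.02 and 0.894 FPKM), so a value of 0 is given only as listed. Granulosa markers were present throughout, 8 of 8 at 1 FPKM or more in each library, with the inhibin subunit Inha at 6986, 7163 and 3742 FPKM at 0, 4 and 12 h. They did not move as one: at 4 h against 0 h the FSH receptor Fshr (133, 15.5 and 32.1 FPKM), Foxl2 (149, 44.3 and 102) and the aromatase Cyp19a1 (198, 30.02 and 105) were lower, and Cyp11a1 (557, 1713 and 930), which starts steroid synthesis, was higher. Oocyte markers were present too, with a summed level of 202, 155 and 286 FPKM and none of 10 at 0. On the deposited scale, summed markers of 5 other cell types were highest at 4 h, the time at which Has2, Ptx3, Tnfaip6 and Vcan peaked. Rescaling to a common sum multiplies the 0, 4 and 12 h libraries by 1.06, 0.856 and 1.12. On that scale the smooth muscle and leukocyte sums are highest at 12 h, and the other 3 stay highest at 4 h. The sums were 17.3, 41.3 and 15.7 FPKM for endothelium (7 genes), 53.6, 133 and 77.3 for surface epithelium (6 genes), and 116, 147 and 72.2 for theca (6 genes). Those of smooth muscle and pericytes (6 genes) were 115, 175 and 170, and those of leukocytes (9 genes) 57.4, 107 and 92.1. Erythroid markers (6 genes) went the other way, with a larger sum that was highest at 0 h, at 1739, 1092 and 1111 FPKM. Of 4 erythroid markers assessed at 4 h against 0 h, 1 was called higher and none lower. Single markers differed. At 4 h against 0 h, 2 of 7 assessed endothelial, 4 of 6 epithelial and 1 of 5 theca markers were called higher. So were 1 of 6 smooth muscle and 3 of 7 leukocyte markers, and no marker of the 5 types was called lower. Lyz2 of the leukocyte list (45.2, 56.5 and 73.0 FPKM) and Acta2 of the smooth muscle list (59.8, 59.1 and 75.4) were highest at 12 h. None of these markers was at 0 in a library except 1 leukocyte marker in each. The part that a different mix of cells plays in the results below was not tested, and in these bulk libraries fewer cells of a type cannot be told apart from less RNA per cell.

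Versican is made in splice forms that differ in the exons to which chondroitin sulfate chains attach. In the mouse gene on chromosome 13 (GRCm38, 89655309 to 89743027, minus strand), V0 holds both exon 7 and exon 8, V1 holds exon 8 alone, V2 holds exon 7 alone and V3 holds neither. The bases around joins that differ between these forms are shown. The join of exon 7 to exon 9, in V2 alone, is left out. Each line gives the last 20 bases of the left exon in lower case and the first 20 bases of the next exon in capitals, from the GENCODE transcripts of GRCm38.
Exon 6 to exon 7, in V0 and V2: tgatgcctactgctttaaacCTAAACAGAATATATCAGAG
Exon 7 to exon 8, in V0: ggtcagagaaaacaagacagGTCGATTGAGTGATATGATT
Exon 6 to exon 8, in V1: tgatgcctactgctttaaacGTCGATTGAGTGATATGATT
Exon 6 to exon 9, in V3: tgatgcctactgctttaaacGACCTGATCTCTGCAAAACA
Cd44, on chromosome 2 (102811141 to 102901669, minus strand), has a run of variable exons between exon 5 and exon 16 of its longest form, and the standard form skips them all. The join of the standard form and the join into exon 14, which opens the variable run of the best measured variable form, are given the same way.
Exon 5 to exon 16, in standard Cd44: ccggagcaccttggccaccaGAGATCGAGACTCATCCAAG
Exon 5 to exon 14, in variable Cd44: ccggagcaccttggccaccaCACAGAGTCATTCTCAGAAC

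The gene that makes the polymer, Has2, was at 0.111 FPKM at 0 h (0 to 0.253), 15.9 at 4 h (13.9 to 17.8) and 0.277 at 12 h (0.0481 to 0.505). The values in brackets are the deposited bounds, which reach 2 deposited standard deviations above the estimate; for a sum of isoforms they were combined from those of the isoforms. The 4 h library alone was high, and its bounds lay apart from those of 0 h and 12 h. Has2 has a single isoform in the table, on chromosome 15 at 56665627 to 56694546. From its length and the depth, these levels correspond to about 5.96, 762 and 13.0 fragments. The log2 fold was 3.92 at 4 h against 0 h, the 127th highest of 13240 genes, and -3.72 at 12 h against 4 h. With a pseudocount of 0.1 FPKM in place of 1 the first was 6.24. The noncoding gene Has2os overlaps Has2, and the sources used here do not give the strandedness, so reads of the pair cannot be told apart. Has2os was at 0.534, 0.368 and 0.310 FPKM and did not have the 4 h peak of Has2.

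**Figure D1:**
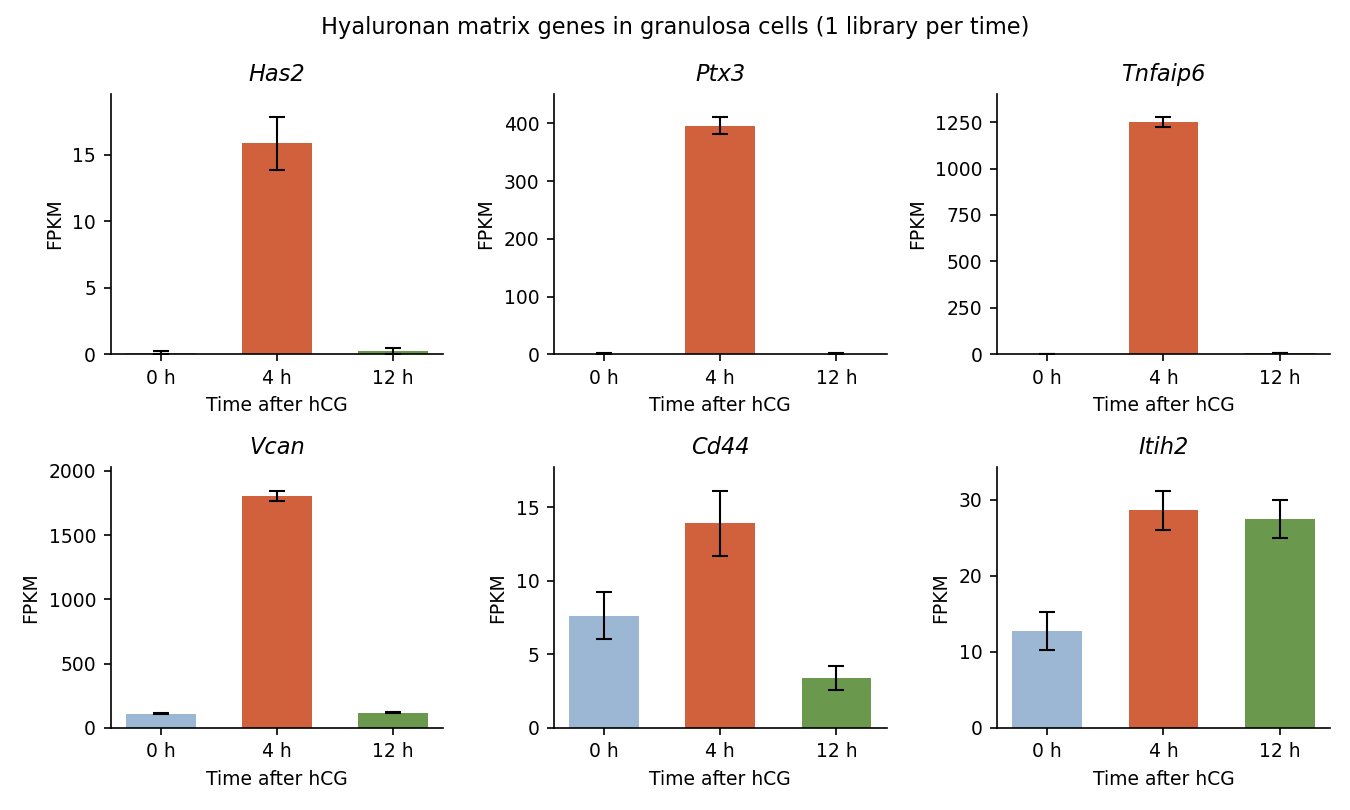
Deposited FPKM of the 6 hyaluronan matrix genes with at least 1 FPKM in a library, at 0, 4 and 12 h after hCG; bars are single libraries, error bars are the deposited bounds (for Vcan and Cd44, combined from those of their isoforms), and each panel has its own linear axis from 0. Has2, Ptx3, Tnfaip6 and Vcan stand out at 4 h, Itih2 has 28.6 FPKM at 4 h, close to the 27.5 at 12 h, and Cd44 is lowest at 12 h at 3.39.

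Tnfaip6, whose product attaches the heavy chains, was at 1.40 FPKM at 0 h (0.554 to 2.24), 1251 at 4 h (1226 to 1276) and 7.01 at 12 h (5.04 to 8.98). It was the 49th most abundant of all 24225 genes at 4 h, per length. The log2 fold at 4 h against 0 h was 9.03, the 21st highest of all genes assessed. At 12 h it was 5.02 times its 0 h level, with bounds that lay apart, so that unlike Ptx3 and Vcan it had not come back to the starting level in these libraries (log2 fold 1.74). With a pseudocount of 5 FPKM that last fold was 0.91 and under the threshold. Tnfaip6 lies on chromosome 2 at 52038113 to 52056681.

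Ptx3, the pentraxin that ties heavy chains together, was at 1.18 FPKM at 0 h (0.467 to 1.89), 396 at 4 h (381 to 410) and 1.25 at 12 h (0.529 to 1.97). The bounds of 0 h and 12 h overlapped and the 4 h bounds lay far above both. The log2 fold was 7.51 at 4 h against 0 h and -7.46 at 12 h against 4 h, the 36th highest and the 35th lowest of all genes assessed. Ptx3, on chromosome 3 at 66219887 to 66225806, lies within the span of Veph1, which was under 1 FPKM throughout (0.133, 0.0269 and 0.0692). Of the 6 other pentraxin genes in the table, Crp, Apcs and Ptx4 were listed at 0 in all 3 libraries, and the neuronal pentraxins Nptx1, Nptx2 and their receptor Nptxr were at 2.70, 3.64 and 1.90 FPKM at 4 h, each called higher than at 0 h; Nptx2 was under the threshold on libraries brought to a common sum, and none of the 3 was called with a pseudocount of 5 FPKM, a filter of 5 FPKM or a 4-fold threshold.

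Vcan was the most abundant of the 10 at every time, at 111 FPKM at 0 h (105 to 118), 1806 at 4 h (1766 to 1846) and 119 at 12 h (114 to 124), summed over 5 isoforms. It made up 82.7%, 51.4% and 75.0% of the summed FPKM of the 10 genes. At 4 h it was 16.2 times its 0 h level (log2 fold 4.01) and ranked 29th of all genes. At 12 h it was 1.07 times its 0 h level and the bounds overlapped.

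Among the versican forms the deposited estimates put the highest level in V3, the form without a chondroitin sulfate exon. V3 was at 77.0 FPKM at 0 h (71.8 to 82.2), 1274 at 4 h (1239 to 1310) and 79.6 at 12 h (74.7 to 84.4). V1 was at 30.9 (28.4 to 33.3), 439 (425 to 453) and 35.9 (33.6 to 38.3). These 2 forms peaked together, at 16.5 and 14.2 times their 0 h levels. V3 held 69.1%, 70.6% and 66.9% of Vcan FPKM at 0, 4 and 12 h, and V1 held 27.7%, 24.3% and 30.2%. The longest form, V0, was at 1.20 FPKM at 0 h (0 to 3.13), 86.4 at 4 h (79.8 to 92.9) and 3.43 at 12 h (2.83 to 4.03). Its ratio of 4 h over 0 h was 72.1, and its lower bound at 4 h over its upper bound at 0 h gave 25.5. V3 reaches 18.2 with its bounds taken the other way. This gap depends on how the estimate divided V0 from V2, which also holds exon 7 and also had a lower bound of 0 at 0 h. For V0 and V2 together the combined bounds were 0 to 6.42 at 0 h and 79.8 to 102 at 4 h. At their nearest these bounds give a ratio below 18.2. V0 thus held 1.07% of Vcan FPKM at 0 h, 4.78% at 4 h and 2.88% at 12 h. V2 was at 1.85, 4.31 and 0.00284 FPKM with a lower bound of 0 at every time, and a short form of 6 exons at 0.546, 2.23 and 0.0746.

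Forms that hold exon 8 summed to 32.1, 525 and 39.4 FPKM, or 28.8%, 29.1% and 33.1% of the gene, and forms that hold exon 7 to 3.05, 90.7 and 3.43 FPKM, or 2.74%, 5.02% and 2.88%. A long form yields more fragments per molecule, so by FPKM multiplied by length V0 accounted for 3.22%, 13.9% and 8.09% of the Vcan signal, V1 for 55.6%, 47.4% and 56.8% and V3 for 38.6%, 38.3% and 35.1%. The models also differ at their 3′ end: the last exon is 2047 nt long in V0, 1019 nt in V1 and 303 nt in V3. V0 to V3 have most of their exons in common, so these values depend on how the estimate divides shared reads, and the part of the model ends in the high V3 level was not tested.

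**Figure D2:**
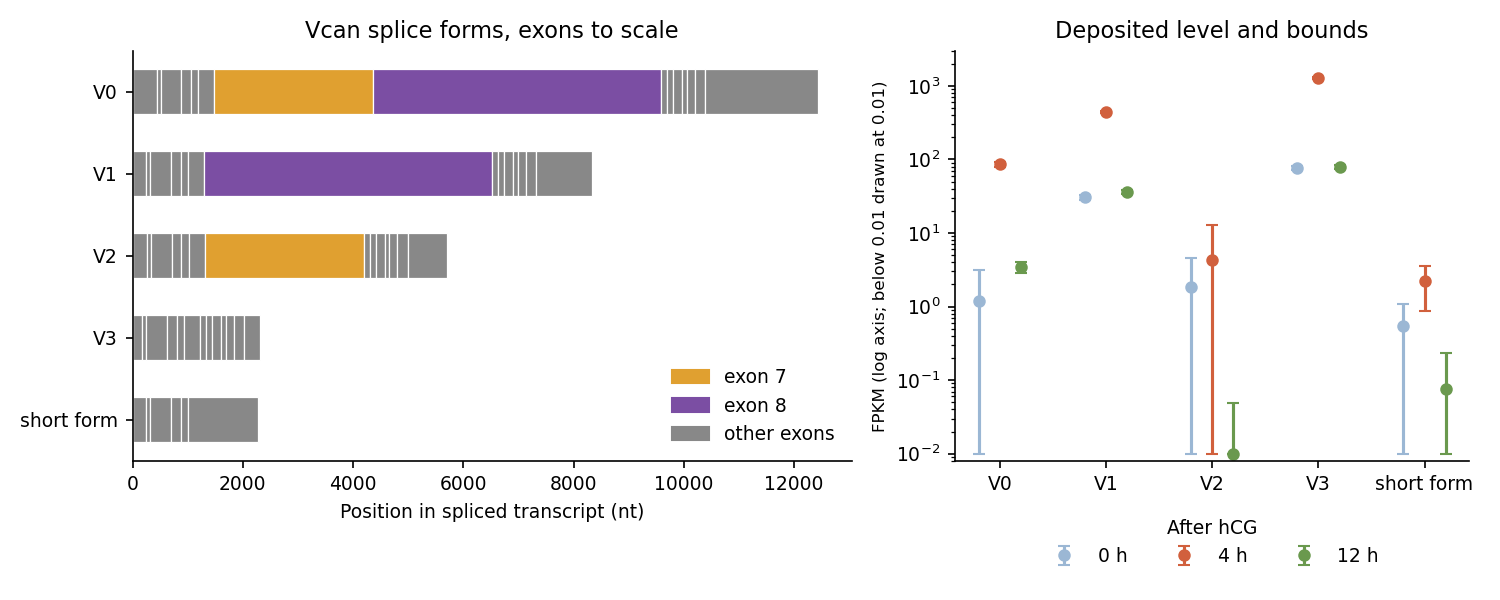
Left, exons of the 5 Vcan isoforms drawn to scale along the spliced transcript in nt, from the linked GENCODE models, with exon 7 and exon 8 coloured. Right, deposited FPKM of each form on a log axis at 0, 4 and 12 h, 1 library per time, with the deposited bounds as error bars; V3 and V1 lead at every time and V0 has the largest fold of the 3, reaching 86.4 FPKM at 4 h.

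Cd44, the receptor, was at 7.63 FPKM at 0 h (6.02 to 9.23), 13.9 at 4 h (11.7 to 16.1) and 3.39 at 12 h (2.56 to 4.23). The 3 intervals lay apart, with 4 h highest and 12 h lowest. The log2 fold of 0.79 at 4 h against 0 h missed the threshold, the one of -1.76 at 12 h against 4 h passed it, and the one of -0.97 at 12 h against 0 h fell just short and passed it with a pseudocount of 0.1 FPKM (-1.15). The standard form held 7.57, 12.8 and 3.39 FPKM. The 5 forms with variable exons together were at 0.0595 FPKM at 0 h (0 to 0.288), 1.13 at 4 h (0.234 to 2.02) and 7.22e-05 at 12 h (0 to 0.150). Of them only the form with exons 14 and 15 had a lower bound above 0, at 4 h, where it was at 0.795 FPKM (0.172 to 1.42) and held 5.71% of the gene. Leukocytes carry Cd44 as well. Their pan marker Ptprc was at 0.489, 0.489 and 0.521 FPKM, and Cd3e was at 0 in the 4 h and 12 h libraries. Of 7 leukocyte markers assessed, 3 were called higher at 4 h against 0 h and none lower. These were Cd68 at 5.39, 22.7 and 12.5 FPKM, S100a8 at 1.59, 10.2 and 0.463, and S100a9 at 0, 10.8 and 0.266. At 12 h against 4 h, 2 of 7 were lower and none higher. The part of leukocytes in the Cd44 values was not tested.

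Of the genes for the serum protein, only Itih2 was measured at 1 FPKM or more. It was at 12.7 FPKM at 0 h (10.2 to 15.3), 28.6 at 4 h (26.0 to 31.2) and 27.5 at 12 h (25.0 to 30.02). The later libraries overlapped in their bounds and both lay above 0 h, with log2 folds of 1.11 and 1.05 against it. The 4 h call rests on the scale, since the log2 fold was 0.81 on libraries brought to a common sum and 0.92 with a pseudocount of 5 FPKM. The 12 h call held on each of the 3 other scales (1.08 to 1.14) and was lost with a pseudocount of 5 (0.87). Itih2 lies on chromosome 2 at 10094591 to 10130683. Itih3 and Itih1 are neighbours on chromosome 14, at 30908572 to 30923787 and 30929180 to 30943289, and Ambp is on chromosome 4 at 63143275 to 63154172. Itih1 and Ambp were listed at 0 in all 3 libraries, and Itih3 was at 0.115 FPKM at 0 h, listed at 0 at 4 h and at 0.0333 at 12 h, with lower bounds of 0. These genes are known for expression in liver, whose secreted proteins reach the follicle with plasma, and of 8 liver markers Alb was at 0.123, 0 and 0.0946 FPKM and Ttr and Serpina1a were listed at 0 throughout. The 8 summed to 75.5, 85.7 and 132 FPKM, mostly Apoa1 at 73.2, 77.2 and 128. Ahsg was at 1.89, 6.71 and 2.84 FPKM and Apoa2 at 0.251, 1.37 and 0.682, while Fga and Fgb stayed below 1 FPKM. Of the 3 assessed at 4 h against 0 h, 1 was called higher and none lower. The part of liver transcripts in the Itih2 values was not tested. A further heavy-chain gene, Itih5, was at 33.8, 39.1 and 47.9 FPKM without passing the threshold.

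The link protein gene Hapln1, on chromosome 13 at 89540529 to 89611832, was at 0.123 FPKM at 0 h (0 to 0.277), 0.206 at 4 h (0.0283 to 0.385) and 0.301 at 12 h (0.0880 to 0.514). The bounds overlapped and the levels correspond to about 9.04, 13.6 and 19.2 fragments. With 1 library per time, a difference between times could not be assessed. Related link proteins and hyaluronan-binding proteoglycans were also low: of Hapln2, Hapln3, Hapln4, Acan, Bcan and Ncan, only brevican (Bcan) reached 1 FPKM, at 6.87, 5.76 and 6.25.

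Ordered by level per length, the 10 genes began with Vcan, Itih2, Cd44, Tnfaip6 and Ptx3 at 0 h, and the bounds of the last 2 overlapped. At 4 h the order was Vcan, Tnfaip6, Ptx3, Itih2, Has2 and Cd44, where the bounds of Has2 and Cd44 overlapped. At 12 h it was Vcan, Itih2, Tnfaip6, Cd44 and Ptx3, each pair with bounds apart.

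The enzymes that build and cut this matrix were read from lists of related genes. The shares to set beside their counts are those of all genes assessed. These were 10.2% higher and 7.03% lower at 4 h against 0 h, and 4.83% and 7.88% at 12 h against 4 h. At 12 h against 0 h they were 3.16% and 2.55%. Of the 9 genes for hyaluronan synthesis and its sugar precursors, 3 exceeded the threshold upward at 4 h and none downward, with a median log2 fold of 0.37 against 0 h, and the 3 were lower again at 12 h. Ugdh, which makes the UDP-glucuronic acid used for hyaluronan and for chondroitin sulfate, was at 30.6 FPKM at 0 h (27.6 to 33.7), 215 at 4 h (207 to 223) and 35.6 at 12 h (32.3 to 38.9). Gfpt2, at the entry of the hexosamine pathway that supplies the other sugar, was at 17.0, 51.1 and 19.5 FPKM; it was no longer called lower at 12 h than at 4 h on libraries brought to a common sum. A second synthase, Has1, was at 0.237 FPKM at 0 h (0 to 0.575), 6.74 at 4 h (5.04 to 8.44) and 0.181 at 12 h (0 to 0.490), high at 4 h alone and there below Has2, while Has3 was at 0.593, 1.05 and 1.13. The remaining precursor genes, Ugp2, Uap1, Gfpt1, Gnpnat1 and Pgm3, passed the threshold in none of the comparisons.

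Genes for the chondroitin sulfate chains that versican carries differed in a few members. Of 24 listed, 21 were assessed at 4 h against 0 h, and the median log2 fold was 0.00. Of the 21, 4 were higher and none lower, where 10.2% of all genes assessed were higher and 7.03% lower. On the common sum 4 were higher and Chst14 was lower. Chst15, which adds a further sulfate to chondroitin 4-sulfate, was at 2.36 FPKM at 0 h (1.69 to 3.03), 125 at 4 h (120 to 130) and 5.14 at 12 h (3.95 to 6.33). That is 53.1 times the 0 h level at 4 h, a larger ratio than that of Vcan itself. Chst11, the chondroitin 4-sulfotransferase, was at 66.8, 228 and 80.3 FPKM. Chsy3, a chain synthase, was at 0.344, 3.07 and 1.19, and Xylt1, which starts the chain, at 0.208, 1.76 and 0.843. At 12 h against 4 h 2 of 21 assessed were lower, Chst15 and Chst11, a share near the 7.88% of all genes assessed. None of the list was higher on the deposited scale. Chst12, at 14.6, 9.58 and 20.1 FPKM, lay just under the threshold and was called higher on the 3 other scales.

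Hyaluronan-degrading genes followed no single course. Of 7, 4 were assessed and 2 passed the threshold upward at 4 h against 0 h, Cemip and Cemip2, the second only on the deposited and the median-of-ratios scales. Cemip, a hyaluronan-depolymerising protein, was at 2.54 FPKM at 0 h (1.91 to 3.16), 13.4 at 4 h (12.3 to 14.6) and 18.3 at 12 h (17.0 to 19.7), so it stayed high when Has2 was low again. Cemip2, a cell-surface hyaluronidase, was at 5.53, 13.8 and 5.75, and Hyal2, the most abundant hyaluronidase of the list, at 41.8, 49.9 and 49.6. Among 9 other hyaluronan receptors and binding proteins 6 were assessed; Lyve1 was higher at 4 h, at 1.59, 12.0 and 1.82 FPKM, and Layn was higher at 12 h than at 4 h, at 6.44, 5.18 and 12.3. Lyve1 marks lymphatic endothelium and some macrophages, and the part of the endothelial markers given above, whose sum also peaked at 4 h, was not tested.

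The ADAMTS proteases known to cleave versican were higher at 4 h in 3 of 4 assessed genes (median log2 fold 2.35) and above 0 h in 3 of 4 at 12 h (1.58). With a pseudocount of 5 FPKM or a 4-fold threshold the 12 h count was 1. At 12 h against 4 h 2 of 4 were lower, Adamts9 and Adamts4, the second on the deposited scale only, and none was higher. Adamts1 was at 28.5 FPKM at 0 h (26.5 to 30.6), 112 at 4 h (108 to 116) and 120 at 12 h (116 to 124). Adamts9 was at 4.37, 47.8 and 13.3 and Adamts4 at 0.992, 12.6 and 5.65. Adamts5 was at 18.1, 9.90 and 9.04, and was called lower at 4 h on libraries brought to a common sum.

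**Figure D3:**
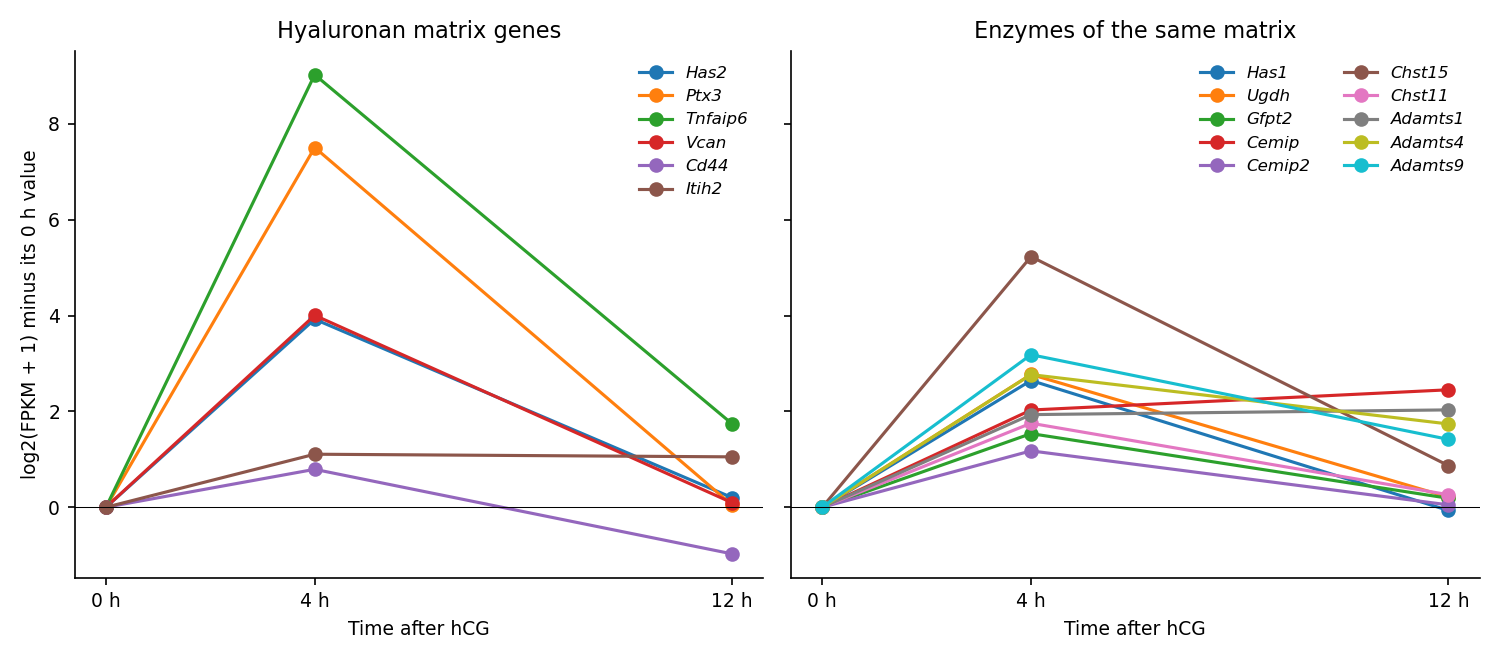
Time courses as log2(FPKM + 1) minus the 0 h value, for the 6 measured hyaluronan matrix genes (left) and for the genes of the synthesis, breakdown, chondroitin sulfate and ADAMTS lists that were called higher at 4 h and reached 5 FPKM (right); each point is 1 library. Chst15 has the highest point at 4 h on the right, and Cemip and Adamts1 are at least as high at 12 h as at 4 h.

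**Figure D4:**
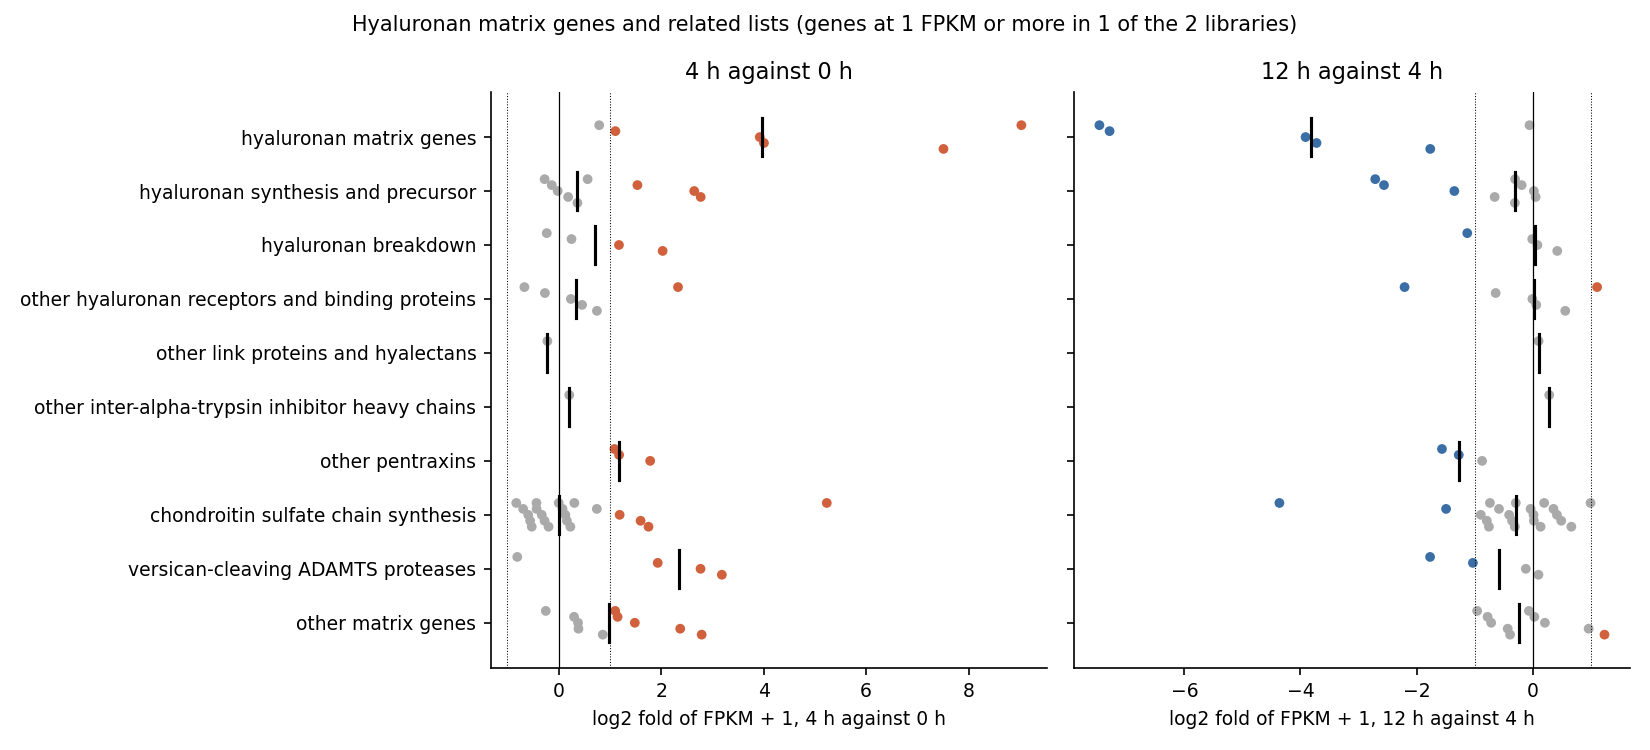
Log2 fold of FPKM + 1 for each gene assessed in the hyaluronan matrix genes and 9 related lists, at 4 h against 0 h (left) and 12 h against 4 h (right), from single libraries; black bars are list medians, dotted lines the 2-fold threshold, red and blue points genes past it. The medians of the matrix genes are 3.97 over the 6 assessed at 4 h and -3.82 at 12 h against 4 h. Among the matrix genes Has2 is assessed only through its 4 h value, as are some genes of the related lists. Over all 10 matrix genes the medians are 0.95 and -0.91, and over all genes assessed -0.01 and 0.01.

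Across the related lists 79 genes were in the table and 59 of them were assessed at 4 h against 0 h. Upward calls numbered 21, where 10.2% of all genes assessed had one, and 11 of the 21 were lower again at 12 h. The lists were chosen with earlier results of these data known, so this count only describes them. Has1, Nptx1, Nptxr, Xylt1, Chsy3 and Adamts4 were below 1 FPKM at 0 h and assessed only through their 4 h value. On the common sum Cemip2, Nptx2, Fn1 and Thbs1 were no longer called, and Chst14 and Adamts5 were called lower. Of all 1356 genes with an upward call at 4 h, 865 (63.8%) were lower again at 12 h, and the 4 h library enters both comparisons. The matrix genes were set beside all 10050 protein-coding genes with at least 5 FPKM in a library by the distance between their log2(FPKM + 1) profiles, each centred on its mean, over the 3 libraries. The nearest to Has2 were Abi3bp (distance 0.06), Vcan (0.13) and Snap91 (0.18), and to Vcan they were Pcdh10 (0.06), Snap91 (0.11) and Has2 (0.13). Ptx3 lay nearest to Npy (0.09), Pgr (0.62) and Epgn (0.78), and Tnfaip6 to Btc (0.50), Nmu (0.70) and Areg (0.94). Cd44 lay nearest to Slfn14 (0.12), Emp1 (0.15) and Robo1 (0.17), and Itih2 to Loxl2 (0.0038), Ostf1 (0.06) and Ctss (0.07). Pgr, the progesterone receptor, was at 0.191, 138 and 0.399 FPKM, and the EGF-like ligands Btc, Areg and Epgn were at 762, 567 and 102 FPKM at 4 h. A profile here has only 3 points, 1 library each.

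Since Tnfaip6 and Vcan were both high at 4 h, the bases before their annotated starts are shown, from RefSeq on GRCm38.p6. The RefSeq window is the 250 bases before the start; for Tnfaip6 the last 104 lie in an exon of the GENCODE model and are left out. The Vcan window lies inside the gene span given above, which reaches further upstream. Capitals mark a match on either strand to a searched motif. The motifs were the full cAMP response element (TGACGTCA), its shorter part (TGACG, which overlaps it), the AP-1 letters (TGANTCA), the E-box (CACGTG), the TATA box (TATAAA), the CCAAT box (CCAAT) and the GC box (GGGCGG).
Tnfaip6, chr2:52037863-52038008, plus strand: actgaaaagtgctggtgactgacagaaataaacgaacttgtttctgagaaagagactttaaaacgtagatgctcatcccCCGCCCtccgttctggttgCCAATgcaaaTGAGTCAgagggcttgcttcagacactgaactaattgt
Vcan, chr13:89742513-89742762, minus strand: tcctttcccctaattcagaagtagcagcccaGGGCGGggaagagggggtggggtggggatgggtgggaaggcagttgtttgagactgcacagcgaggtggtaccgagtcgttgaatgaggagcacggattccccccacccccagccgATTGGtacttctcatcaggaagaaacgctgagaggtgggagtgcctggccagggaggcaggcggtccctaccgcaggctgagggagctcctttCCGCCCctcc
In Tnfaip6 the capitals are a GC box on the opposite strand 171 to 166 bases before the RefSeq start, a CCAAT box at 152 to 148 and the AP-1 letters at 142 to 136; the part left out holds a second CCAAT box at 81 to 77, on the opposite strand. In Vcan they are a GC box at 219 to 214, another on the opposite strand at 10 to 5, and a CCAAT box on the opposite strand at 103 to 99. No searched letters lay in the full window of Ptx3. Of 9 of the 10 genes with a window in the table, 2 held the AP-1 letters (Tnfaip6 and Itih2), 3 a CCAAT box and 3 a GC box, where 6.75%, 33.8% and 32.7% of all 32851 promoters do. None held either form of the cAMP response element, the E-box or the TATA box, and 1.55% of all promoters hold the full element, 17.8% its shorter part, 6.02% the E-box and 12.4% the TATA box. Has2 had no entry. These matches describe letters only.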

How the data were processed

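The authors deposited FPKM per RefSeq isoform with lower and upper bounds for 3 libraries, per the file headers; the level of the bounds is not stated, and each upper bound lies 2 times the deposited standard deviation above the value. The tools and build listed per the submitters' processing notes are CASAVA 1.8, TopHat2 2.1.1, Cufflinks 2.2.1 and mm10, with roles and order not stated. RNA came from 3 mice per time, per the labels' protocols; pooling, strandedness and read length are not given in the sources used here. Accessions matched RefSeq symbols of GRCm38.p6 for 34169 of 34535 isoforms and GENCODE for 193 more; 173 were left out. Isoform FPKM were summed per gene, with bounds combined as the root of summed squared half-widths. Folds are log2 of (FPKM + 1), called at 2-fold where either library reached 1 FPKM; without replicates no p-value was computed. Exon structures and lengths came from GENCODE transcripts linked to the accessions, and depth from the spacing of FPKM in 1-isoform genes (70.0% to 71.8% of values within 0.1 of whole fragments). The calling step was tested on simulated data. Alternatives covered pseudocount, low-value filter, scaling, main isoform, threshold and intervals apart. The genes and lists were chosen with earlier results of these data known; named are all 10, each list's called genes (or its most abundant), and the 3 nearest profiles, with a few further list genes given for context after their values were seen. Python 3.11.15 with pandas 2.3.3 was used.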

Additional observations from a re-analysis of the deposited data

How the results depend on the processing

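Over 11 alternatives the number of the 10 genes called stayed at 4 to 6 at 4 h against 0 h and at 4 to 5 at 12 h against 4 h. At 12 h against 0 h it was 2 as reported, 0 with a pseudocount of 5 FPKM and 0 at a 4-fold threshold. It was 3, 2 higher and 1 lower, with a pseudocount of 0.1 FPKM and at a 1.5-fold threshold. No fold that was called changed sign; the uncalled fold of Itih2 at 12 h against 4 h, -0.05 as reported, was 0.33 on library sums and 0.22 on protein-coding sums. Of the recomputed folds 80 stayed within the spread given by the deposited bounds and 22 moved beyond it, all under another pseudocount or under rescaling to library sums or protein-coding sums. At 4 h against 0 h Has2 ranged over 2.03 to 6.24 and Tnfaip6 over 7.62 to 9.71. When only isoforms with a lower bound above 0 were counted, V3 held 71.4%, 70.7% and 66.9% of Vcan at 0, 4 and 12 h. V1 then held 28.6%, 24.4% and 30.2%, and standard Cd44 94.2% of its gene at 4 h. V0 at 0 h and V2 at every time drop out under that rule. Their move cannot exceed their bounds, so it is no check on them. Among the related lists 46 recomputed counts moved by over 1.5 times, or to or from 0, and 251 did not. The 251 include every count of the link protein and heavy-chain lists, which had 1 gene assessed each and no call. No paired analysis was possible because each time has 1 library. Without replicates the spread between mice is unknown for every value; at 11600000 to 13400000 fragments, genes such as Hapln1 and Itih3 rest on under 20 fragments a library.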

Other observations

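Other genes of the extracellular matrix were read from a list of 10. Of these, 5 passed the threshold upward and none downward at 4 h against 0 h (median log2 fold 0.98), or 3 on libraries brought to a common sum. At 12 h against 4 h 1 was higher and none lower, and at 12 h against 0 h 2 were higher and none lower, the same numbers at 12 h against 0 h as for the 10 hyaluronan matrix genes. Over all genes assessed 10.2%, 4.83% and 3.16% were higher in these 3 comparisons. Spp1, which encodes osteopontin, was at 21.0 FPKM at 0 h (16.4 to 25.7), 152 at 4 h (141 to 163) and 358 at 12 h (343 to 374), highest at the time when Has2, Ptx3 and Vcan were low again. Mgp, the matrix Gla protein, was at 70.9, 371 and 191 FPKM and Tnc, tenascin C, at 5.56, 17.4 and 10.2. Fn1, fibronectin, at 19.4, 42.9 and 24.6, and Thbs1, thrombospondin 1, at 190, 422 and 322, were called at 4 h on the deposited and median-of-ratios scales and not on libraries brought to a common sum. Leukocyte markers, some of whose cells also make osteopontin, summed to 57.4, 107 and 92.1 FPKM, and their part in the Spp1 values was not tested.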
